A study of Mus musculus with 4 samples.

Results

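The genes described here are 8 transcripts that lie downstream of the kinase MEKK3 in endothelium: the transcription factors Klf2, Klf4 and Klf6, the secreted metalloproteases Adamts1, Adamts4, Adamts5 and Adamts9, and the endothelial nitric oxide synthase Nos3. They were taken by symbol from the 32285 genes of the count tables, and each symbol matched 1 gene. Their level was measured in mouse brain sections with 10x Visium, in which barcoded spots on a slide capture polyadenylated RNA from the tissue above them, so that 1 spot holds several cells. The knockout mice (Slco1c1-iCreERT2;Pdcd10fl/fl, written Pdcd10BECKO) lost Pdcd10 in brain endothelial cells, where the Slco1c1 promoter drives a tamoxifen-dependent Cre. The controls were littermates of the genotype Pdcd10fl/fl without Cre. Both groups received 50 µg of 4-hydroxytamoxifen on postnatal day 1, were examined on day 65 and gave 2 libraries each from 10 µm frozen sections. The titles and the design text speak of normoxia, one label gives hypoxia as the treatment of the knockouts and normoxia as that of the controls, and the protocol given for every library names 12% oxygen for 2 days. If the treatment label holds, oxygen and genotype cannot be told apart in any comparison below. The labels do not say whether both libraries of a group stem from different mice, so no p-value can be read as covering the spread between mice. Whole-section p-values reflect the spread between libraries, which may be technical. Where spots of the same library are compared below, p-values reflect how far that contrast varied between libraries. In both cases the fit also draws on the spread of all other genes.

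PDCD10 (also called CCM3), KRIT1 and CCM2 form the cerebral cavernous malformation complex, whose loss from brain endothelium gives dilated, leaky vessels. CCM2 binds MEKK3 (gene Map3k3) and holds back a cascade that runs over MEK5 (Map2k5), ERK5 (Mapk7) and the MEF2 factors to Klf2 and Klf4, the transcription factors by which endothelium also answers to blood flow. KLF2 and KLF4 switch on anticoagulant and vasodilator genes such as Thbd and Nos3, and the ADAMTS proteases named here cut the large proteoglycans versican and aggrecan in the matrix around vessels and neurons. Several of the 8 genes are made outside endothelium too, so their level in a spot that mixes cells does not name its source.

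The kept spots, those with at least 1000 UMIs (unique molecular identifiers, 1 per captured transcript), numbered 4599 and 4472 in knockouts 1 and 2 and 2931 and 4096 in controls 1 and 2. The deposited counts totalled 53514669 and 74467027 UMIs in the knockouts and 50148764 and 64317838 UMIs in the controls. All 4992 barcodes recur in every library because they belong to the slide design. Pdcd10 stood at 80.3 and 83.0 CPM (counts per 1000000 UMIs) in the knockouts and 90.9 and 82.3 CPM in the controls, which checks nothing here, because the deletion is limited to endothelium and 3′ tags may lie outside the deleted part. The sections differed in make-up by expression: spots assigned to the white matter list made up 16.3% and 13.5% of the deep spots (at least 5000 UMIs) in the knockouts and 37.8% and 42.6% in the controls. The assignment used expression and no positions, so a difference in the tissue cut and a lower level of myelin transcripts in like tissue cannot be told apart. Of the cell type lists, the endothelial one (19 genes such as Cldn5 and Pecam1) summed to 785 and 756 CPM in the knockouts and 323 and 332 CPM in the controls, with 16 genes higher and none lower. The reactive astrocyte list summed to 1703 and 1664 CPM in the knockouts and 261 and 256 CPM in the controls, and the oligodendrocyte list to 5208 and 3794 CPM in the knockouts and 8749 and 12254 CPM in the controls. In such mixed samples more cells of a type and more RNA per cell cannot be told apart.

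Over whole sections 6 of the 8 genes rose in the knockouts (Klf2, Klf4, Klf6, Adamts1, Adamts9 and Nos3), Adamts4 fell, and Adamts5 did not pass the test. The test was edgeR's quasi-likelihood test on UMIs summed per library, with Benjamini-Hochberg adjustment over 17546 genes and a threshold of 0.05. Of all genes tested, 20.1% were called higher and 18.3% lower, and 72.5% had knockout and control libraries that did not overlap, so a single gene past the test is common in these sections. The median log2 fold change was 0.76 over the 8 genes and -0.00082 over all genes.

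**Figure D1:**
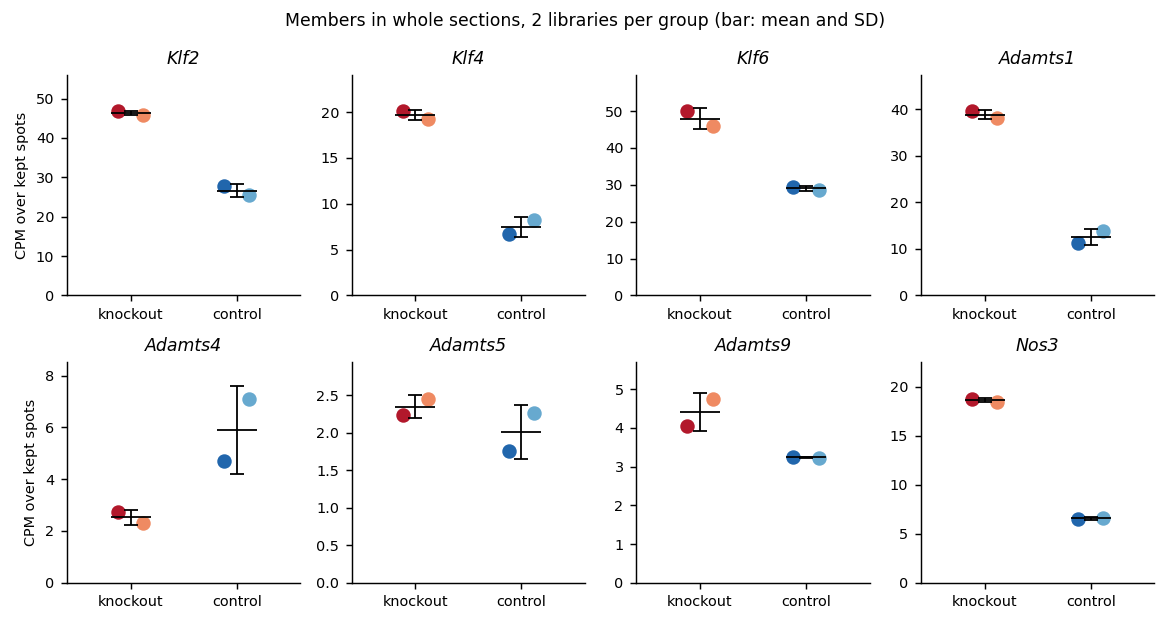
Level of each gene in CPM over all kept spots of a library (linear axis), with the 2 knockout libraries on the left and the 2 control libraries on the right of each panel; the black bar is the group mean with its SD. The knockout libraries lie above both controls for 6 genes, below both for Adamts4, and overlap them for Adamts5.

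Klf2, which lies on chromosome 8 from 72319062 to 72321654 (GRCm38.p6), is a zinc finger factor that flow induces in endothelium. It stood at 46.8 and 45.9 CPM in knockouts 1 and 2 and at 27.7 and 25.4 CPM in controls 1 and 2. Both knockouts lay well above both controls. The fold was 1.74 (log2 0.80, SE 0.0713, adjusted p = 0.000275). Klf4 (chromosome 4, 55527137 to 55532475), its close relative, which shares many endothelial targets with Klf2, gave 20.1 and 19.3 CPM in the knockouts and 6.71 and 8.28 CPM in the controls. The groups were further apart than for Klf2, with a fold of 2.61 (log2 1.39, SE 0.113, adjusted p = 0.000193). Klf6 (chromosome 13, 5861489 to 5870393), an injury-induced factor found in many cell types, had 49.9 and 45.9 CPM in the knockouts and 29.5 and 28.6 CPM in the controls. Its fold of 1.65 (log2 0.72, SE 0.0717, adjusted p = 0.000447) was the smallest of the 3 KLF genes.

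The promoters of Klf2 and Klf4 are shown because they are the points at which MEF2 factors are known to act in this cascade. RefSeq promoter sequence (GRCm38.p6) was at hand for 5 of the 8 genes, Klf2, Klf4, Klf6, Adamts1 and Adamts9, and the 250 bases before each start were searched on both strands for CTA and TAG with any 4 bases between them, the core letters of a MEF2 site, and for CCNCNCCC, the letters of a KLF or SP1 box. In Klf2 (chr8:72318812-72319061, plus strand) the capitals mark the MEF2 letters, whose first base lies 118 bases before the start. In Klf4 (chr4:55532476-55532725, minus strand, shown 5′ to 3′ as transcribed) they mark the KLF box letters, which overlap one another in several places.
Klf2: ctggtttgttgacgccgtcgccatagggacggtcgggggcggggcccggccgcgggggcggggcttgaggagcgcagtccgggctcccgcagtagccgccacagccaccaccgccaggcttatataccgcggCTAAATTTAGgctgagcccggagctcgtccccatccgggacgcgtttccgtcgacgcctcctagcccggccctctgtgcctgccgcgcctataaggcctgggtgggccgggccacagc
Klf4: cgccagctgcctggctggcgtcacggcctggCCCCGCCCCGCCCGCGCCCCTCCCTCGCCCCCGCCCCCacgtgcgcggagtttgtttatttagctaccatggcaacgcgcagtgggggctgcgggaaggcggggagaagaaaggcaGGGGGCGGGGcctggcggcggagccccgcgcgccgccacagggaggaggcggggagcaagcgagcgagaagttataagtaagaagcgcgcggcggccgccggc
Among all 32851 promoter windows of that length in the table, 3.20% held the MEF2 letters and 45.9% the KLF box letters. Klf2 was the member with the MEF2 letters among the 5 searched, while KLF box letters occurred in all 5, with 4 matches in Klf2, 9 in Klf4, 2 in Klf6, 3 in Adamts1 and 1 in Adamts9. A match is a match of letters and was not tested as a binding site.

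Adamts1 (chromosome 16, 85793827 to 85803113), which cleaves versican and aggrecan and binds the growth factor VEGF, showed the largest rise of the 8 genes. It gave 39.5 and 38.1 CPM in the knockouts against 11.3 and 13.8 CPM in the controls. The fold was 3.09 (log2 1.63, SE 0.101, adjusted p = 5.89e-05). Adamts9 (chromosome 6, 92772699 to 92944450), another versican-cleaving member, had 4.06 and 4.76 CPM in the knockouts and 3.25 and 3.22 CPM in the controls. The gap between the groups was small, and the fold of 1.37 (log2 0.45, SE 0.139, adjusted p = 0.0392) lost its call when knockout 2 (adjusted p = 0.252), control 1 (0.0661) or control 2 (0.0728) was left out. Adamts5 (chromosome 16, 85858157 to 85901125), the aggrecanase known from cartilage, gave 2.24 and 2.46 CPM in the knockouts and 1.76 and 2.26 CPM in the controls. The groups overlapped, and its log2 difference of 0.22 (SE 0.181, adjusted p = 0.369) did not pass.

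Adamts4 (chromosome 1, 171250129 to 171262267), an aggrecanase that oligodendrocytes make in brain, was the gene that fell. It had 2.73 and 2.33 CPM in the knockouts and 4.71 and 7.11 CPM in the controls, a fall by 1.24 on the log2 scale (SE 0.213, adjusted p = 0.00429). The controls differed between themselves by more than the knockouts did. Set against the oligodendrocyte list, Adamts4 gave 0.530 and 0.636 UMIs per 1000 list UMIs in the knockouts and 0.532 and 0.558 in the controls, so that on this scale the groups were close. With the same number of spots per region list in every library, its log2 difference was -0.30 (adjusted p = 0.412).

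Nos3 (chromosome 5, 24364816 to 24384474), which makes nitric oxide in endothelium and is a known KLF2 target, had 18.8 and 18.5 CPM in the knockouts and 6.47 and 6.66 CPM in the controls. The libraries of each group lay close together and far from the other group. The fold was 2.84 (log2 1.505, SE 0.0855, adjusted p = 4.01e-05).

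The rises were then set against the endothelial list, which rose as well. Per 100 endothelial-list UMIs, Adamts1 gave 5.10 and 5.23 UMIs in the knockouts and 3.46 and 3.99 in the controls, Klf4 2.59 and 2.65 in the knockouts and 2.05 and 2.40 in the controls, and Nos3 2.42 and 2.54 in the knockouts and 1.98 and 1.93 in the controls. On this scale the ratio of group means was 1.39 for Adamts1, 1.18 for Klf4 and 1.27 for Nos3. Klf2 went the other way, with 6.03 and 6.31 UMIs per 100 in the knockouts and 8.48 and 7.37 in the controls, a ratio of 0.778. Klf6 (ratio 0.737), Adamts9 (0.610), Adamts5 (0.525) and Adamts4 (0.192) were lower than the controls on this scale too. In the 10% of deep spots richest in the endothelial list, the ratio was 0.939 for Klf2, 0.891 for Klf6, 0.951 for Adamts5 and 1.47 for Klf4, and the libraries of the groups overlapped for these 4 genes. There it was 1.71 for Adamts1, 1.62 for Nos3, 0.451 for Adamts9 and 0.257 for Adamts4, with no overlap. These ratios are descriptions with no test, and the list was chosen with earlier results of these data known. The share of all genes without overlap on this scale was not computed. In the 10% of spots richest in it, the list made up 0.221% and 0.283% of knockout UMIs and 0.0951% and 0.0861% of control UMIs. A gene with an unchanged CPM is thus lower in the knockouts on this scale. By CPM, Adamts9 overlapped in those spots, at 8.65 and 9.57 in the knockouts and 9.37 and 5.89 in the controls.

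The share of spots with at least 1 UMI of a gene depends on depth, so spots of at least 5000 UMIs were also thinned at random to 5000 UMIs each. Klf2 was then found in 21.8% (95% Wilson interval 20.4 to 23.3) and 20.7% (19.4 to 22.1) of knockout spots and in 13.9% (12.5 to 15.3) and 11.8% (10.6 to 13.1) of control spots. Adamts1 was found in 18.7% (17.3 to 20.1) and 17.4% (16.2 to 18.7) of knockout spots against 6.04% (5.13 to 7.10) and 6.57% (5.67 to 7.60) of control spots. Nos3 was found in 8.77% and 9.17% of knockout spots and in 2.96% and 2.70% of control spots. For Klf2 and Adamts1 the intervals of the groups lay apart, and they cover counting error only.

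Klf4 was found in 9.89% and 10.4% of thinned knockout spots against 3.79% and 3.72% of control spots, and Klf6 in 22.8% and 21.2% of knockout spots against 13.1% and 12.1% of control spots. Adamts4 was seen in 1.90% and 1.499% of knockout spots and in 2.38% and 4.11% of control spots, Adamts5 in 0.915% and 1.36% of knockout spots and in 0.706% and 1.02% of control spots, and Adamts9 in 1.96% and 2.77% of knockout spots and in 2.07% and 1.45% of control spots. The shares of Adamts5 and Adamts9 overlapped between the groups. For Adamts9 this depended on the thinning. Another random thinning to 5000 UMIs gave 2.37% and 2.45% in the knockouts and 2.12% and 1.41% in the controls, without overlap. Thinning to 1000 UMIs also gave no overlap for Adamts9. Without thinning, over all kept spots, Klf2 was found in 35.2% and 41.9% of knockout spots and in 32.8% and 26.6% of control spots, a narrower gap, where the median depth was 8158 and 13164.5 UMIs in the knockouts and 15326 and 16226.5 UMIs in the controls. An exact two-sided permutation test of 2 libraries against 2 cannot go below p = 0.33, and the shares are given as descriptions with no test.

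Klf2-positive spots mostly held a single UMI. Of the spots thinned to 5000 UMIs, 117 and 142 held 2 or more UMIs of Klf2 in the knockouts, against 46 and 29 in the controls, and the spot with the most Klf2 held 15 UMIs in knockout 2. Several of the 8 genes could meet in 1 spot: 4 or more were present in 31 spots (1.05%) of knockout 1 and 51 spots (1.47%) of knockout 2, against 0 of 2267 spots of control 1 and 1 of 2557 spots of control 2. Such spots were thus almost absent from control sections, where 0 in control 1 allows a share of up to 0.132%, counting error only. The number of such spots given by independent placement was not computed. The single-gene shares of Klf2, Klf4, Klf6, Adamts1 and Nos3 were themselves lower in the controls. Klf2 and Klf4 shared 79 and 124 knockout spots, 1.24 and 1.66 times the number given by independent placement, and 17 and 14 control spots, 1.43 and 1.25 times that number. Klf2 and Adamts1 shared 154 and 176 knockout spots (1.28 and 1.41 times) and 32 and 23 control spots (1.69 and 1.16 times).

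To place the genes in relation to vessels, the 10% of a library's deep spots with the highest share of endothelial-list UMIs (endothelial-rich spots) were compared with its other deep spots. None of the 8 genes belongs to that list. In the knockouts all 8 genes were higher in endothelial-rich spots (edgeR's quasi-likelihood test, adjusted p of 0.0190 or less), where 11.9% of all genes outside the list were. In the controls 5 of 8 were higher (Klf2, Klf4, Adamts1, Adamts9 and Nos3), against 9.64% of all genes, while Klf6, Adamts4 and Adamts5 did not pass. Without control 1, 3 passed in the controls (2.96% of all genes), and without control 2 also 3 (6.18%). With every spot thinned to 5000 UMIs before ranking, 5 passed in the knockouts (7.98% of all genes) and 1 in the controls (2.09%). Mural genes, those of pericytes and smooth muscle, moved with the class: they made up 0.0672% and 0.102% of UMIs in endothelial-rich spots of the knockouts, against 0.0244% and 0.0210% in their other spots, and 0.0560% and 0.0587% in those of the controls, against 0.0155% and 0.0173%, and their part in the result was not tested.

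**Figure D2:**
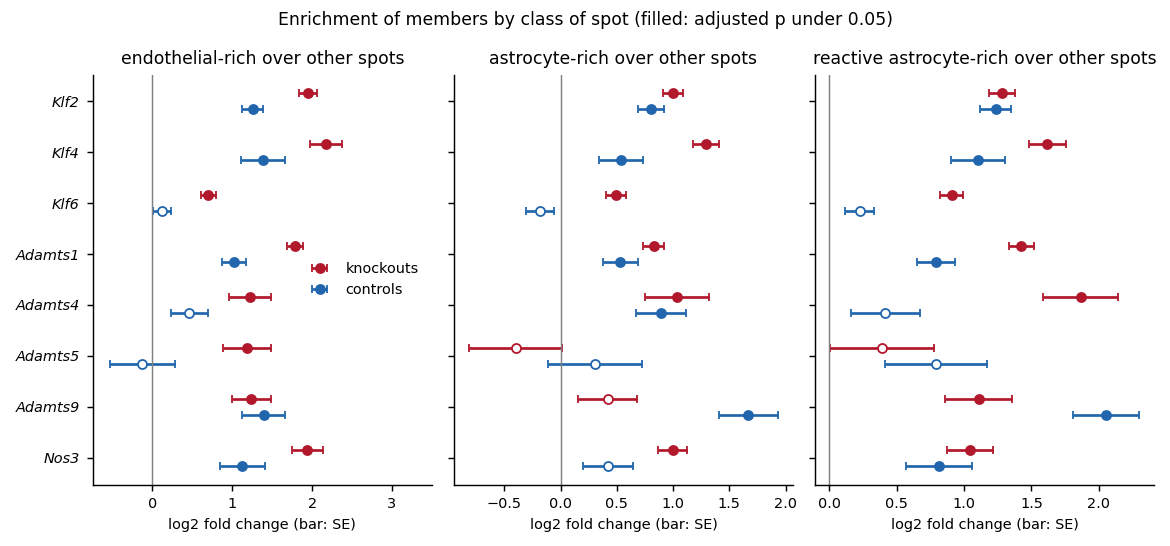
Log2 fold change of each gene in spots rich in endothelial, astrocyte or reactive astrocyte transcripts over the other spots of the same libraries, with its SE as the bar; within a row the upper red point is the knockouts and the lower blue point the controls, filled where the adjusted p was under 0.05. In endothelial-rich spots all 8 red points are filled, against 5 blue points.

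Klf2 gave 122 and 166 CPM in endothelial-rich spots of the knockouts and 38.3 and 36.2 CPM in their other spots, a fold of 3.86 (log2 1.95, SE 0.113, adjusted p = 2.17e-06). In the controls it gave 63.7 and 50.7 CPM in endothelial-rich spots and 24.9 and 22.5 CPM in other spots, a fold of 2.39 (log2 1.26, SE 0.133, adjusted p = 0.000177). Klf2 was thus concentrated in vessel-rich spots in both groups. Klf4 reached 50.2 and 86.2 CPM in endothelial-rich spots of the knockouts against 16.5 and 13.8 CPM in other spots (fold 4.52, adjusted p = 3.31e-05), and 12.8 and 20.9 CPM in those of the controls against 6.04 and 7.005 CPM in other spots (fold 2.62, adjusted p = 0.00604). Nos3 reached 41.5 and 73.6 CPM against 16.2 and 13.9 CPM in the knockouts (fold 3.83, adjusted p = 6.40e-05) and 12.8 and 13.2 CPM against 5.93 and 6.002 CPM in the controls (fold 2.18, adjusted p = 0.0190). For both genes knockout 2 had the highest value of any library.

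Adamts1 showed 96.8 and 120 CPM in endothelial-rich spots of the knockouts against 32.2 and 30.9 CPM in other spots (fold 3.45, adjusted p = 2.17e-06), and 23.3 and 24.2 CPM in those of the controls against 10.5 and 12.7 CPM in other spots (fold 2.03, adjusted p = 0.00107). In the knockouts its level outside the endothelial-rich spots was thus above its level inside those of the controls. Klf6 was 71.1 and 73.9 CPM in endothelial-rich spots of the knockouts against 46.7 and 42.9 CPM in other spots (fold 1.63, adjusted p = 0.000302). In the controls Klf6 was 30.7 and 30.8 CPM in endothelial-rich spots and 29.0 and 27.8 CPM in other spots, which did not differ beyond the spread (log2 0.12, SE 0.109, adjusted p = 0.536).

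Adamts9 was concentrated to a like degree in both groups, with a fold of 2.36 in the knockouts (adjusted p = 0.00494) and 2.62 in the controls (adjusted p = 0.00594). Adamts4 had a fold of 2.34 in the knockouts (adjusted p = 0.00798) and a log2 difference of 0.46 in the controls (SE 0.236, adjusted p = 0.228). Adamts5 had a fold of 2.27 in the knockouts (adjusted p = 0.0190), which was lost without knockout 2 (adjusted p = 0.152) and by DESeq2 (0.122), and a log2 difference of -0.13 in the controls (SE 0.409, adjusted p = 0.886). The difference of the enrichments, knockout minus control, passed for none of the 8 genes (adjusted p of 0.191 to 0.971, edgeR's quasi-likelihood test), where 0.107% of all genes passed. At an unadjusted p under 0.05 it passed for 7 of 8, against 6.98% of all genes, and DESeq2 also called none at its adjusted p. Without knockout 1 it was called for 5 of 8, against 1.74% of all genes.

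The knockout sections' endothelial-rich spots held more endothelial RNA than those of the controls, 0.221% and 0.283% of UMIs against 0.0951% and 0.0861%, so the classes are not alike in content. Knockouts were therefore also compared with controls in each class alone, an alternative added after the data were seen. In endothelial-rich spots alone 9.83% of 13425 genes were called higher, and so were 6 of the 8: Klf2 (fold 2.57), Klf4 (3.99), Klf6 (2.38), Adamts1 (4.60), Adamts5 (2.57, adjusted p = 0.0405) and Nos3 (4.52). The Adamts5 value rests on few UMIs, 16 and 27 in the knockouts and 6 and 8 in the controls. In the other spots 18.9% of genes were called higher, and 5 of the 8 were: Klf2 (fold 1.57), Klf4 (2.31), Klf6 (1.57), Adamts1 (2.71) and Nos3 (2.51). The rise of these 5 genes was thus measured on both sides of the split.

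The gradient over all spots is seen when each library's deep spots are put in 10 equal bins by endothelial share and thinned to 5000 UMIs. In the lowest bin Klf2 was found in 10.1% and 9.22% of knockout spots and 10.1% and 10.2% of control spots. In the highest bin it was found in 46.4% and 52.0% of knockout spots and 25.2% and 19.6% of control spots. The groups met at the low end and parted at the high end. Klf6 differed from Klf2, with 20.9% and 19.0% of knockout spots against 12.8% and 11.7% of control spots in the lowest bin, and 32.9% and 32.1% against 11.9% and 11.4% in the highest. Nos3 was found in 14.9% and 26.0% of knockout spots and 6.19% and 2.75% of control spots in the highest bin.

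**Figure D3:**
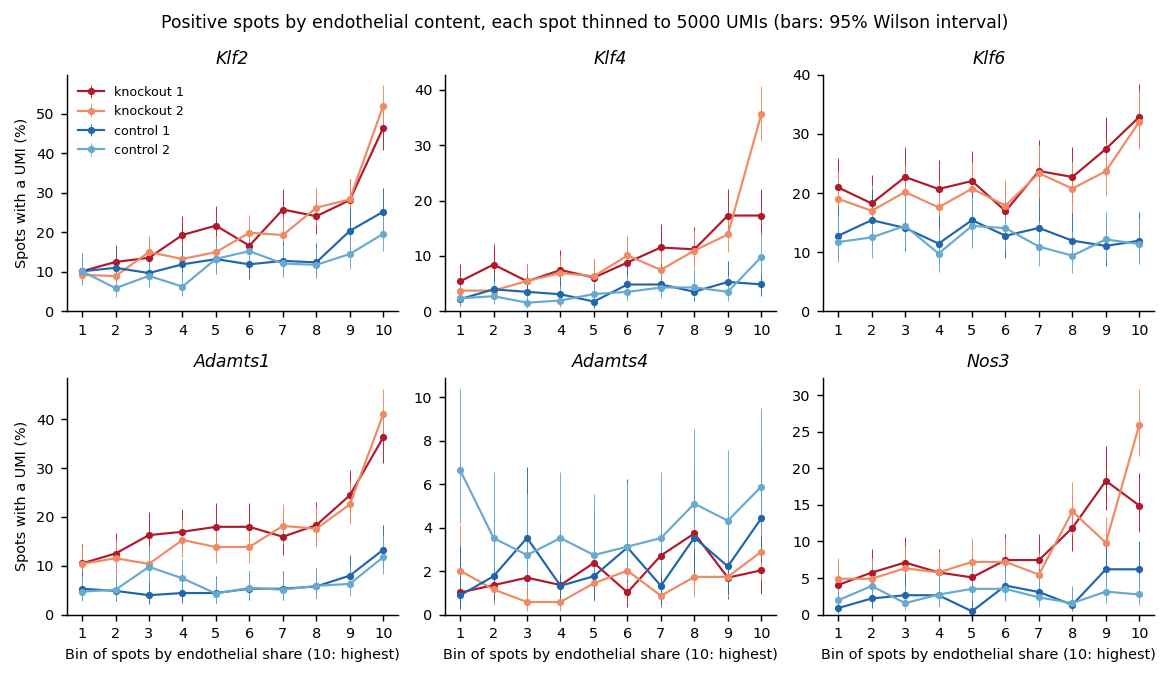
Share of spots with at least 1 UMI of a gene (%, bars are 95% Wilson intervals) over 10 equal bins of a library's deep spots ranked by endothelial-list share of UMIs, after thinning every spot to 5000 UMIs; red and orange lines are knockouts 1 and 2, dark and light blue lines controls 1 and 2. Klf2, Klf4, Adamts1 and Nos3 climb most steeply in the last bins of the knockouts, Klf6 is flat in the controls, and the Adamts4 lines cross within their intervals.

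Astrocyte-rich spots, the 10% with the highest share of 12 general astrocyte genes such as Aqp4 and Slc1a3, were compared in the same way. In the knockouts 6 of 8 genes were higher there (Klf2, Klf4, Klf6, Adamts1, Adamts4 and Nos3), against 18.5% of all genes outside the list, and in the controls 5 of 8 (Klf2, Klf4, Adamts1, Adamts4 and Adamts9), against 18.2%. These spots held more endothelial RNA as well, 0.111% and 0.135% of UMIs in the knockouts and 0.0581% and 0.0507% in the controls, against 0.0725% and 0.0702% in the knockouts' other spots and 0.0308% and 0.0321% in the controls' other spots, and its part in these values was not tested. Klf4 gave 38.3 and 44.9 CPM in astrocyte-rich spots of the knockouts against 17.3 and 16.9 CPM in other spots (fold 2.45, adjusted p = 8.71e-16), and 10.2 and 10.5 CPM against 6.20 and 7.82 CPM in the controls (fold 1.45, adjusted p = 0.0244). Without knockout 2 the number called in the knockouts was 4 (9.51% of all genes), and without control 1 the number in the controls was 3 (13.2%).

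The difference of the astrocyte enrichments passed for 3 of 8 genes, where 4.65% of all genes passed. Klf6 was 59.2 and 66.4 CPM in astrocyte-rich spots of the knockouts against 47.2 and 43.3 CPM in other spots, and 25.3 and 25.03 CPM against 29.2 and 28.1 CPM in the controls. It was thus higher in astrocyte-rich spots of the knockouts and not of the controls, a log2 difference of 0.67 (SE 0.150, adjusted p = 0.00175). Klf4 differed by 0.75 (SE 0.216, adjusted p = 0.0232). Adamts9 ran the other way, with 5.71 and 5.42 CPM in astrocyte-rich spots of the knockouts against 3.63 and 4.56 CPM in other spots, and 10.9 and 7.25 CPM against 2.68 and 2.81 CPM in the controls (log2 difference -1.25, SE 0.349, adjusted p = 0.0183). None of the 3 differences was called without knockout 2 (adjusted p of 0.235 for Klf6, 0.392 for Klf4 and 0.409 for Adamts9), that of Klf4 was not called without control 2 (0.410), and that of Adamts9 not without control 1 (0.203). DESeq2 called none, with an adjusted p of 0.118 for Klf6 and 0.353 for Klf4 and none given for Adamts9.

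Reactive astrocyte transcripts, 18 genes such as Gfap, Vim and Serpina3n that astrocytes raise after injury, were scarce in the controls, where they made up 0.106% and 0.0919% of UMIs in the spots richest in them, against 0.494% and 0.517% in the knockouts. In the knockouts 7 of 8 genes were higher in such spots, all but Adamts5, against 18.5% of all genes outside the list. In the controls 5 of 8 were higher (Klf2, Klf4, Adamts1, Adamts9 and Nos3), against 17.9% of all genes. Adamts1 reached 86.3 and 94.4 CPM in these spots of the knockouts against 33.6 and 33.8 CPM in other spots (fold 2.69, adjusted p = 2.04e-13), and 20.3 and 20.9 CPM against 10.6 and 13.0 CPM in the controls (fold 1.73, adjusted p = 3.77e-05). The same spots held 0.126% and 0.171% endothelial UMIs in the knockouts and 0.0563% and 0.0523% in the controls, and the part of this in the values was not tested.

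The difference of the reactive astrocyte enrichments passed for Adamts4, Klf6 and Adamts1, where 9.31% of all genes passed. Adamts4 gave 6.71 and 8.78 CPM in the rich spots of the knockouts against 2.55 and 1.87 CPM in other spots, and 5.90 and 9.49 CPM against 4.68 and 6.87 CPM in the controls, a log2 difference of 1.45 (SE 0.359, adjusted p = 0.00760). Within these spots its level overlapped between the groups. Klf6 gave 81.2 and 84.6 CPM against 46.3 and 42.6 CPM in the knockouts, and 34.4 and 31.6 CPM against 28.7 and 27.6 CPM in the controls (log2 difference 0.68, SE 0.136, adjusted p = 0.000923). The Klf6 difference was called without any 1 library and by DESeq2 (adjusted p = 0.0355). The Adamts4 difference was not called without knockout 2 (adjusted p = 0.208), and that of Adamts1 (log2 0.63, SE 0.159, adjusted p = 0.00829) was not called without control 2 (adjusted p = 0.283). DESeq2 called neither (adjusted p = 0.112 for Adamts4 and 0.132 for Adamts1).

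The reverse view asks which transcripts share spots with each gene. Spots thinned to 5000 UMIs were split by the presence of a UMI, and summed counts of positive and negative spots were tested with the library as a block. Adamts5 had 16 positive spots in control 1, too few for this fit. Of all other genes, 3.61% were higher in Klf2-positive spots, 1.81% in Klf4-positive spots, 0.869% in Klf6-positive spots, 2.9% in Adamts1-positive spots, 2.72% in Adamts4-positive spots, 0.125% in Adamts9-positive spots and 1.34% in Nos3-positive spots. The number of positive spots differed widely between the 8 genes, so these percentages are not compared with each other.

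**Figure D4:**
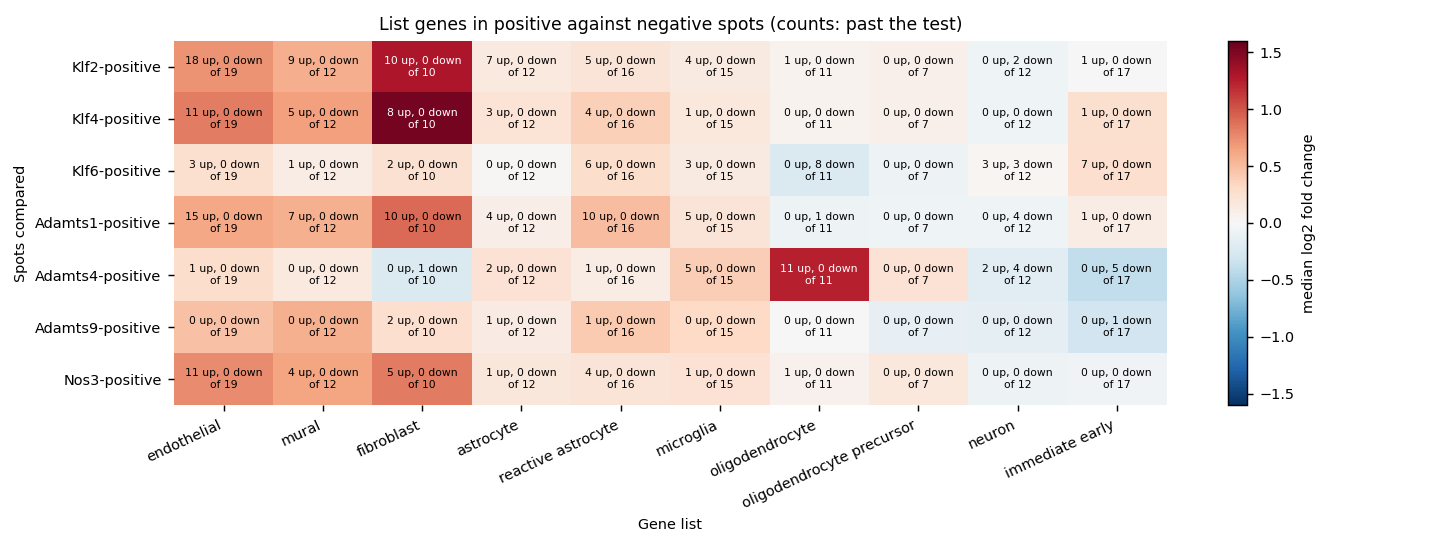
Median log2 fold change (colour) of the genes of each cell type list, and of the immediate early list, in spots positive for a gene over spots negative for it, with the number of list genes past the test in each direction and the number tested. The endothelial and fibroblast cells are dark for Klf2, Klf4, Adamts1 and Nos3, the oligodendrocyte cell is dark red for Adamts4, and Klf6 has 7 immediate early genes up and 8 oligodendrocyte genes down.

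Of 19 endothelial genes, 18 were higher in Klf2-positive spots, 15 in Adamts1-positive spots, 11 each in Klf4-positive and Nos3-positive spots, 3 in Klf6-positive spots and 1 in Adamts4-positive spots. These counts leaned on knockout 2: without it they were 9 for Klf2, 3 for Adamts1, 2 for Klf4, 1 for Nos3 and 0 for Klf6 and Adamts4. Of 12 mural genes, 9 were higher in Klf2-positive spots, 7 in Adamts1-positive, 5 in Klf4-positive, 4 in Nos3-positive and 1 in Klf6-positive spots. Klf2, Klf4, Adamts1 and Nos3 were each higher in spots positive for any of the other 3, with both groups pooled. Adamts1, for one, was higher in Klf2-positive spots by 0.80 on the log2 scale (SE 0.0900, adjusted p = 6.82e-09), and Klf4 by 0.91 (SE 0.128, adjusted p = 1.36e-06). In control spots alone, Klf4 and Adamts1 met 0.770 and 0.961 times as often as by independent placement, and Klf4 and Nos3 0.787 and 0.780 times. For Klf2 and Nos3 the control values were 1.72 and 0.985, and for Adamts1 and Nos3 1.73 and 1.32. These control values rest on 2 to 16 shared spots. In the knockouts the same pairs ranged from 1.09 to 1.84.

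Genes of the fibroblasts of the meninges and larger vessels had the highest median log2 fold change of the cell type lists with Klf2, Klf4, Adamts1 and Nos3. All 10 fibroblast-list genes were higher in Klf2-positive and Adamts1-positive spots, 8 in Klf4-positive spots and 5 in Nos3-positive spots. By log2 fold change, the 3 genes most enriched in Klf2-positive spots were Itih2 (3.18-fold, adjusted p = 9.59e-07), Slc22a6 (3.03-fold) and Slc13a4 (2.93-fold), a hyaluronan-binding protein and 2 solute carriers. For Klf4 they were Ogn (4.01-fold, adjusted p = 5.34e-05), Aldh1a2 (3.88-fold) and Slc13a4 (3.85-fold), and for Adamts1 Slc22a6 (2.64-fold, adjusted p = 0.000407), Mrc2 (2.62-fold) and Itih2 (2.57-fold). For Nos3 they were Ecrg4 (3.25-fold, adjusted p = 0.0478), Eln, which encodes elastin (3.03-fold), and Itih2 (2.86-fold). Over whole sections the fibroblast list summed to 135 and 157 CPM in the knockouts and 228 and 214 CPM in the controls, with 7 of 10 genes lower and 1 higher.

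Of 12 astrocyte genes, 7 were higher in Klf2-positive spots, 4 in Adamts1-positive, 3 in Klf4-positive, 2 in Adamts4-positive and 1 each in Nos3-positive and Adamts9-positive spots. None was higher in Klf6-positive spots by edgeR's quasi-likelihood test, and 1 was with another random thinning. Without control 1 the Klf2 count was 2 and the counts of Adamts4, Adamts9 and Nos3 were 0. Without knockout 1 the counts of Klf4 and Nos3 were 0 and that of Adamts1 was 1, which it also was without knockout 2. Reactive astrocyte genes were higher with Adamts1 in 10 of 16 tested, with Klf6 in 6, with Klf2 in 5 and with Klf4 and Nos3 in 4 each. Adamts9-positive spots were most enriched in Myoc (2.94-fold, adjusted p = 1.28e-05), Pcolce (2.79-fold) and Col1a2 (2.27-fold). Pcolce encodes an enhancer of procollagen processing and Col1a2 a chain of collagen I.

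Klf6 and Adamts4 kept other company. Klf6-positive spots had 7 of 17 immediate early genes higher (Egr1, Egr3, Junb, Egr4, Dusp1, Nr4a1 and Egr2), none lower, and 8 of 11 oligodendrocyte genes lower. Their most enriched genes were Prkcd (2.08-fold, adjusted p = 5.50e-07), Synpo2 (1.97-fold) and Rgs16 (1.78-fold), of which Prkcd and Rgs16 belong to the thalamus list. Over whole sections 16 of 17 immediate early genes were lower in the knockouts and 1 was higher, against the direction of Klf6. Adamts4-positive spots had all 11 oligodendrocyte genes higher, with a median log2 fold change of 1.24, 5 of 15 microglial genes higher, and 5 immediate early genes lower. The genes most enriched with Adamts4 were Tirap (4.29-fold, adjusted p = 0.0393), Ddx58 (3.51-fold) and Thbs4 (3.17-fold). Adamts4-positive spots numbered 52 to 105 per library, and in them Tirap averaged 8.35 CPM and Ddx58 15.3 CPM. The folds of these 2 genes thus rest on a few UMIs per library.

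Deep spots were also assigned to the region list (white matter, cerebellum, midbrain and hindbrain, hypothalamus and amygdala, thalamus, striatum, hippocampus or cortex) on which they scored highest, which gave levels per region with no test. Klf2, Klf4, Adamts1 and Nos3 were higher in both knockouts than in both controls in all 8 regions, as were 6.06% of the 17546 genes tested over whole sections. The ratio of group means ranged from 1.58 to 2.79 for Klf2, from 2.15 to 3.45 for Klf4, from 2.26 to 5.11 for Adamts1 and from 2.08 to 3.55 for Nos3. The thalamus list gave the highest group mean of all 4 genes in both groups, but the highest value in every library for Klf2 alone. In knockout 1 Adamts1 was 39.9 CPM there, below the cortex list at 43.9 CPM. Nos3 was 22.5 CPM there, below the white matter list at 24.3 CPM. In control 2 Klf4 (12.1 CPM), Adamts1 (14.6 CPM) and Nos3 (6.95 CPM) were also higher in another region list.

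In thalamus-list spots Klf2 stood at 60.7 and 91.1 CPM in the knockouts and 51.8 and 33.3 CPM in the controls, and Klf4 at 24.7 and 41.3 CPM in the knockouts and 10.9 and 12.1 CPM in the controls. By group mean, white-matter-list spots came next for Klf2, at 54.7 and 56.6 CPM in the knockouts and 31.2 and 24.8 CPM in the controls, below the thalamus value in each library. In the controls they overlapped the cerebellum, at 32.8 and 21.8 CPM, and the cortex, at 25.1 and 25.7 CPM. Midbrain and hindbrain, cerebellum and cortex followed in the knockouts and overlapped one another, between 45.7 and 52.0 CPM. The lowest Klf2 mean of the knockouts was that of the hypothalamus and amygdala, at 27.4 and 34.2 CPM in the knockouts against 20.05 and 19.0 CPM in the controls. The thalamus spots numbered 247 and 284 in the knockouts and 115 and 144 in the controls.

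**Figure D5:**
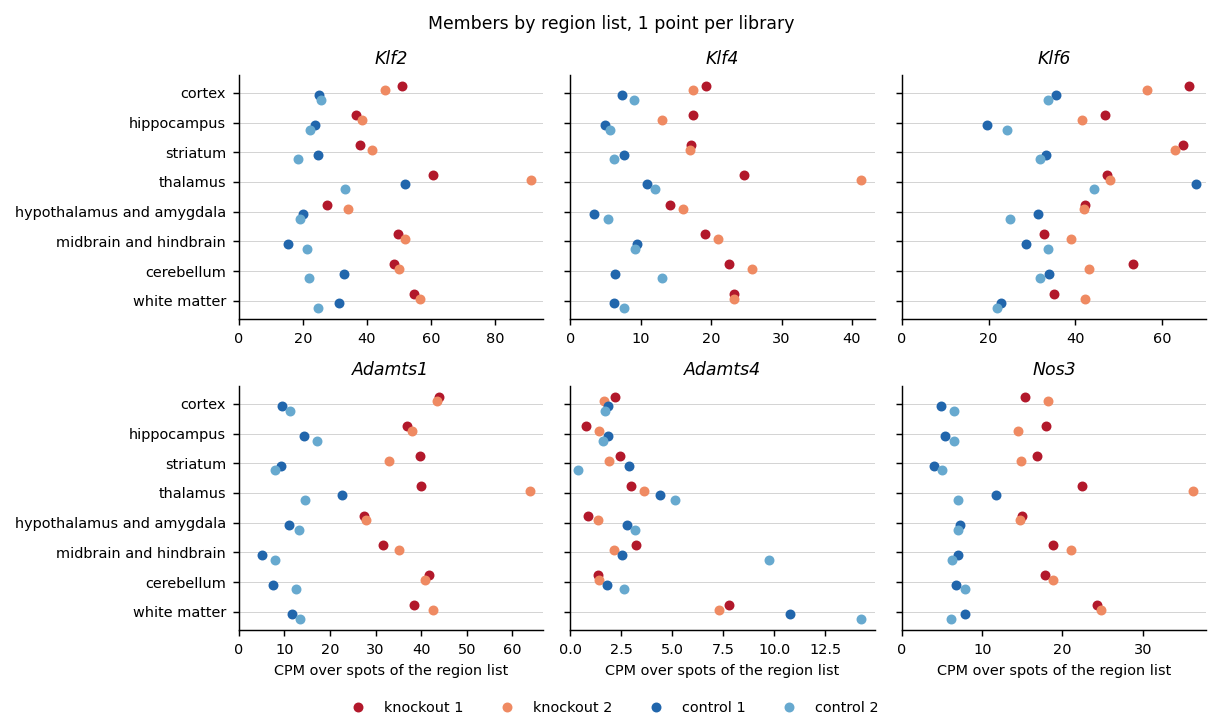
Level in CPM (linear axis) over the deep spots assigned to each region list, 1 point per library, with red and orange for knockouts 1 and 2 above dark and light blue for controls 1 and 2 within a row. Klf2, Klf4, Adamts1 and Nos3 have both knockouts right of both controls in every row, Klf6 does not in the thalamus and midbrain and hindbrain rows, and Adamts4 peaks in the white matter row.

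Klf6 had another order. It was highest in striatum-list spots of the knockouts, at 64.9 and 63.0 CPM against 33.2 and 31.9 CPM in the controls, followed by cortex at 66.3 and 56.5 CPM against 35.5 and 33.8 CPM, and the 2 regions overlapped. In thalamus-list spots the groups overlapped, with 47.4 and 48.0 CPM in the knockouts against 67.9 and 44.2 CPM in the controls. The knockouts exceeded both controls in 6 of 8 regions for Klf6, 5 for Adamts5 and 3 for Adamts9, where 18.5%, 26.7% and 46.2% of all genes did so in at least as many regions. Adamts5 had few UMIs per region, in thalamus-list spots 9 and 16 in the knockouts and 2 and 4 in the controls. Its gap in midbrain-and-hindbrain-list spots was narrow, with 2.07 and 2.15 CPM in the knockouts against 1.90 and 1.72 CPM in the controls. Adamts9 in cortex-list spots gave 4.27 and 5.57 CPM in the knockouts against 1.09 and 1.65 CPM in the controls, its widest ratio at 3.60.

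Adamts4 was highest in white-matter-list spots in every library, at 7.79 and 7.29 CPM in the knockouts and 10.8 and 14.2 CPM in the controls. It was 2.19 and 1.66 CPM in cortex-list spots of the knockouts and 1.85 and 1.72 CPM in those of the controls, which overlapped. Both knockouts lay below both controls in 5 of 8 regions, as did 15.2% of all genes in at least as many, and the ratio of group means was 0.604 in white matter. With equal spot numbers per region in every library, Klf2, Klf4, Klf6, Adamts1 and Nos3 were still called higher, as were 2576 of 14616 genes tested. Adamts9 (log2 0.35, adjusted p = 0.310) and Adamts4 were not called there.

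Of 16 genes of the CCM complex and the MEKK3 cascade, 3 rose (Ccm2l, Rasip1 and Heg1), 3 fell and 10 did not pass. Over all genes tested 20.1% were called higher and 18.3% lower, so the counts of this list lie near those shares. The same shares are the measure for the counts of the lists that follow. Ccm2l, a CCM2-like protein of endothelium, gave 5.81 and 6.21 CPM in the knockouts against 2.68 and 2.51 CPM in the controls (log2 1.22, adjusted p = 0.000578), and Heg1, the endothelial receptor of KRIT1, 28.6 and 25.1 CPM against 11.9 and 14.5 CPM (log2 1.02, adjusted p = 0.000804). Mapk7, which encodes ERK5, was at 7.85 and 8.94 CPM in the knockouts and 12.7 and 11.6 CPM in the controls (log2 -0.53, adjusted p = 0.00776). Map3k3, which encodes MEKK3 and is named for that reason alone, stood at 2.78 and 1.88 CPM in the knockouts and 0.798 and 1.94 CPM in the controls, which overlapped (log2 0.72, adjusted p = 0.166).

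Of 8 genes known as induced by KLF2 or KLF4, 4 rose, among them Procr, Thbd and Ass1, Nppc fell and 3 did not pass. Thbd, which encodes thrombomodulin, gave 22.02 and 22.4 CPM in the knockouts against 9.54 and 8.54 CPM in the controls (log2 1.30, adjusted p = 9.20e-05), and it was higher in Klf2-positive spots as well. Of the genes known as repressed by them, Angpt2 (log2 3.08, adjusted p = 0.000106) and Edn1 (log2 1.35) rose, against the name of their list, while Ace (log2 0.28, adjusted p = 0.0501) and Vcam1 (log2 -0.10, adjusted p = 0.403) did not pass. Angpt2, Edn1 and Vcam1 were higher in Klf2-positive spots.

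Among 13 other KLF genes tested, 6 rose and 2 fell, with a median log2 fold change of 0.28. Klf10 fell by 0.61 on the log2 scale (adjusted p = 0.00182) and Klf15 rose by 0.51 (adjusted p = 0.00210). Among 15 other ADAMTS genes 2 rose and 5 fell, with a median of -0.10. Adamts14, which processes procollagen, gave 1.11 and 1.62 CPM in the knockouts against 0.307 and 0.309 CPM in the controls (log2 2.16, adjusted p = 0.00172), while Adamts20 fell by 0.74, Adamts15 by 0.72 and Adamts8 by 0.84.

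Of 12 genes of the hyaluronan and lectican matrix, the substrates of these proteases and their partners, 3 rose and 3 fell. Acan, which encodes aggrecan, gave 5.40 and 5.03 CPM in the knockouts against 2.62 and 2.47 CPM in the controls (log2 1.03, adjusted p = 0.00128). Timp3, an inhibitor of ADAMTS proteases, gave 136 and 131 CPM in the knockouts against 62.7 and 79.1 CPM in the controls (log2 0.91, adjusted p = 0.00101), and Bcan, which encodes brevican, 132 and 103 CPM against 179 and 213 CPM (log2 -0.74, adjusted p = 0.00509). Timp3 was higher in spots positive for Klf2, Klf4, Klf6, Adamts1 or Nos3. Of 9 nitric oxide genes other than Nos3, 3 rose, among them the neuronal synthase Nos1 (log2 0.59, adjusted p = 0.00829), and 3 fell, the nitric oxide receptor subunits Gucy1a1 and Gucy1b1 and the downstream kinase Prkg1 (log2 of -0.34, -0.30 and -0.51).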

How the data were processed

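The authors deposited raw UMI counts per gene and barcode, 1 matrix per library, made with Space Ranger on mm10 per the submitters' processing notes (version not given in the sources used here; per the file headers the matrices are in the Cell Ranger 4 format). No spot positions or tissue calls were used: barcodes with at least 1000 UMIs were kept. Counts were summed per library, or per library and class of spots, and tested with edgeR 4.0.16 (TMM factors, quasi-likelihood test, default filter on low counts, Benjamini-Hochberg adjustment over all genes tested, threshold 0.05) in R 4.3.3. CPM of single genes were computed on TMM-scaled totals, and those of summed lists, regions and barcodes under 1000 UMIs on plain totals. Classes of spots within a library were fitted with the library as a block. List genes that defined a class stayed in its fit and its adjustment and were left out of the shares of all genes called. DESeq2 1.42.0, other normalizations, filters, depths, class sizes, equal spot numbers per region and each library left out were the alternatives. The code was tested on simulated counts. Titles number the libraries of both groups, but the same-numbered ones did not deviate together (r = -0.1185), so the fit had no block. Shares were computed in Python 3.11.15. The members and lists were chosen with earlier results of these data known. The text names the 8 genes, Pdcd10, up to 4 called genes per list with the smallest p and, per member, the 3 genes with the largest log2 fold change in its positive spots that passed the test, averaged at least 5 CPM and were higher in all 4 libraries. A result of the list of genes repressed by KLF2 or KLF4 is not reported here.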

Additional observations from a re-analysis of the deposited data

Results flagged for a closer look

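The enrichment of 6 gene and class pairs differed between knockouts and controls by a test of the difference itself. In astrocyte-rich spots the log2 differences, knockout minus control, were 0.753 for Klf4, 0.669 for Klf6 and -1.25 for Adamts9. In reactive astrocyte-rich spots they were 0.682 for Klf6, 0.633 for Adamts1 and 1.45 for Adamts4. The Klf6 difference in reactive astrocyte-rich spots was called by both edgeR and DESeq2, which called none of the other 5 and gave no adjusted p for Adamts9. Over the 10 alternatives the call was lost in 7 for Klf4, 3 for Klf6 and 4 for Adamts9 in astrocyte-rich spots, and in 6 for Adamts1, 4 for Adamts4 and 1 for Klf6 in reactive astrocyte-rich spots. None of the 3 differences in astrocyte-rich spots was called without knockout 2, nor was that of Adamts4 in reactive astrocyte-rich spots, and that of Adamts1 was not called without control 2.

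Barcodes under 1000 UMIs were left out of the comparisons of the report, apart from the alternative over all barcodes. In them Klf2, Klf4, Klf6, Adamts1, Adamts5 and Nos3 were higher in both knockouts than in both controls. The share of all genes without overlap was not computed for these barcodes, and it was 72.5% over whole sections, so no weight is put on their number. Adamts4 (0 and 8.79 CPM in the knockouts and 1.42 and 7.07 CPM in the controls) and Adamts9 (3.48 and 11.7 CPM in the knockouts and 4.27 and 2.36 CPM in the controls) overlapped. Klf2 stood at 69.5 and 61.5 CPM in the knockouts and 48.3 and 14.1 CPM in the controls, Klf4 at 45.2 and 32.2 CPM in the knockouts and 12.8 and 9.43 CPM in the controls, and Klf6 at 66.0 and 90.8 CPM in the knockouts and 19.9 and 14.1 CPM in the controls. Adamts1 stood at 59.1 and 49.8 CPM in the knockouts and 15.6 and 9.43 CPM in the controls. These values rest on 4 to 34 UMIs per library. Adamts5 at 3.48 and 8.79 CPM in the knockouts (1 and 3 UMIs) and Nos3 at 17.4 and 8.79 CPM in the knockouts (5 and 3 UMIs) rest on a handful of UMIs. In the controls these 2 genes had 0 and 1 and 5 and 0 UMIs.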

How the results depend on the processing

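Klf2, Klf4, Klf6, Adamts1 and Nos3 were called higher over whole sections under all 16 alternatives, with log2 fold changes of at least 0.649, 1.21, 0.654, 1.44 and 1.33. Adamts9 lost its call with DESeq2 (0.441), spots of at least 5000 UMIs (0.426), spots thinned to 1000 UMIs (0.463), sums matched over regions (0.352), endothelial-rich spots alone (0.311), other spots alone (0.449) and 3 of 4 libraries left out (0.325 to 0.553). With the replicate number as a block Adamts9 was 0.446 and lost its call, no other member's call changed, and 5813 genes were called, against 6739 without the block. With the pairing crossed, an alternative added after the data were seen, 8176 genes were called. Adamts4 lost its call with matched regions (-0.299) and in endothelial-rich spots alone (-0.59), which left none of the 8 genes called lower. Adamts5 gained a call in endothelial-rich spots alone (1.36), on 6 to 27 UMIs per library. Over all genes DESeq2 called 5393, thinning to 1000 UMIs 3298 and endothelial-rich spots alone 2422.

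Thinning to 5000 UMIs before ranking left 5 knockout and 1 control genes called in endothelial-rich spots (7.98% and 2.09% of all genes). It also left 2 control genes in astrocyte-rich and 2 in reactive astrocyte-rich spots, and 0 differences in either astrocyte class. Leaving out 1 library gave 3 to 5 control calls in endothelial-rich and in astrocyte-rich spots, 0 to 5 endothelial differences, and 0 to 3 astrocyte differences. The endothelial differences called numbered 1 with the top 5%, 3 with the top 20% and 1 within regions. The astrocyte ones numbered 0 with DESeq2 and 1 with spots of at least 1000 UMIs. The reactive ones numbered 1 with DESeq2 and 1 with the top 5%. For most of these settings the share of all genes called is not given here. That share can differ between settings, so no weight is put on these counts of called genes. Uncalled control values changed sign for Klf6 in endothelial-rich (-0.0936 thinned, -0.0337 top 20%) and astrocyte-rich spots (0.0635, top 5%), and for Adamts5 in endothelial-rich (0.0413 from 1000 UMIs, 0.0496 top 20%, -0.411 to 0.236 with 1 library left out), astrocyte-rich (-0.101 to 0.898 with 1 left out) and reactive astrocyte-rich spots (-1.13 thinned). Adamts5 in astrocyte-rich spots of the knockouts turned to 0.0924 (top 20%) and 0.338 (top 5%), and Adamts1 in those of the controls, called at 0.532, to -0.000743 when thinned.

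Endothelial genes higher in positive spots numbered, with 1 library left out, 9 to 18 for Klf2, 2 to 13 for Klf4, 0 to 4 for Klf6, 3 to 18 for Adamts1, 0 to 2 for Adamts4 and 1 to 13 for Nos3. Thinned to 1000 UMIs they were 3 for Klf2, 2 for Klf4, 0 for Klf6 and 0 for Adamts1, and with another seed 0 for Klf6, 2 for Adamts4 and 1 for Adamts9. Astrocyte genes numbered, with 1 library left out, 2 to 8 for Klf2, 0 to 5 for Klf4, 0 to 1 for Klf6, 1 to 6 for Adamts1, 0 to 3 for Adamts4, 0 to 1 for Adamts9 and 0 to 4 for Nos3. Thinned to 1000 UMIs they were 0 for Klf2, Klf4 and Adamts1, and with another seed 5 for Klf4, 1 for Klf6 and 1 for Adamts4. The causes of these changes were not tested. Adamts4, Adamts5 and Adamts9 rest on 86 to 437 UMIs per library.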
